A study of Saccharomyces cerevisiae with 18 samples.

Results

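Strain ZCZ01 was followed between 0.5 h and 2 h after galactose was added, and the members of the comparison are its 6 libraries of those times, 3 at 2 h and 3 at 0.5 h, out of 18 libraries in the series. ZCZ01 is a haploid Saccharomyces cerevisiae strain derived from BY4741 in which the GAL1-10 promoter drives PPZ1, so that galactose turns on the gene, and both groups carry this construct. The other libraries are ZCZ01 at 4 h and wild type BY4741 at 0.5, 2 and 4 h, with 3 libraries each. Cells grew on raffinose before galactose was added, and galactose also changes the carbon source of wild type cells, whose change over the same interval is therefore given beside that of ZCZ01. The time and experiment of a library were taken from its library name, because the sample titles give another time for 12 of the 18 libraries. RNA was read as QuantSeq 3′ tags, which count transcripts once at their 3′ end, and levels are given as CPM, the counts of a gene scaled to a common library size, after TMM scaling. Values of 3 libraries are listed in the order of experiments 1, 2 and 3, each of which has its own 2 h and 0.5 h library.

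The 6 ZCZ01 libraries held 1215608 to 1906012 counts, against 955972 to 1920193 over the series. Experiment 1 stood apart: across 5658 genes, the log2 changes of experiments 2 and 3 correlated at a Pearson coefficient of 0.835, and those of experiment 1 at 0.554 and 0.592 with them, where genes are not independent of each other. Counts of experiments 2 and 3 were also much closer to each other (a chi-square of 2.60 for each degree of freedom at 2 h and 1.12 at 0.5 h) than to those of experiment 1 (20.8 to 40.7). A value near 1 is what the counting of reads alone would give. Agreement of experiments 2 and 3 may therefore not count as that of 2 separate repeats, and p-values and agreement in all 3 experiments are to be read with this limit. PPZ1 itself went the other way in experiment 1 than in experiments 2 and 3, with 89.4 CPM at 2 h against 508 CPM at 0.5 h, which raises the question whether the times of its libraries were exchanged. CTT1 changed by 3.62, 3.44 and 3.60 and MDH1 by -2.27, -2.38 and -2.42 on the log2 scale in experiments 1, 2 and 3, so that both kept their direction in experiment 1. Over all 5658 genes, the changes of experiment 1 also correlated positively with those of experiments 2 and 3 (0.554 and 0.592). An exchange was not tested further. Counts of calls over all genes are therefore also given without each experiment, and list counts with their range when 1 is left out. Nothing in the sources used here says whether the 3 experiments are separate cultures, and p-values measure only the spread between these samples. The labelled strain was checked with mating type and marker genes: a-cell genes such as MFA1 and STE2 were read in every library, MET17 had no count in any library, and LEU2 had at most 1. The probe of HIS3, another gene that BY4741 lacks in part, held 62 to 253 counts in the 6 libraries, and URA3 held 0 to 20.

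Ppz1 is a protein phosphatase of fungi that lowers potassium uptake and opposes salt tolerance, and its activity is held down by the inhibitory subunits Sis2 (Hal3) and Vhs3. Yeast that meets stress or slows its growth is known to raise a common set of protective genes through the zinc finger factors Msn2 and Msn4, and to lower genes for making ribosomes. Genes for respiration and for the S phase of the cell cycle are each switched together by their own factors, and mating genes are raised by the pheromone pathway.

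Promoter letters of 6 genes are shown because each stands for a group described below. The window covers bases 400 to 101 before the start codon, 300 bases in all, on the coding strand of the R64 genome, read from RefSeq, and capitals mark the named motif on either strand. CTT1 and HSP12 carry the stress element STRE (AGGGG), QCR6 the site CCAAT of the Hap complex, POL1 the cell cycle box MCB (ACGCGT), FUS1 the pheromone element PRE (TGAAACA) and ARG1 the core of the Gcn4 site (TGACTC).
CTT1 (STRE, chrVII:654234-654533, plus strand): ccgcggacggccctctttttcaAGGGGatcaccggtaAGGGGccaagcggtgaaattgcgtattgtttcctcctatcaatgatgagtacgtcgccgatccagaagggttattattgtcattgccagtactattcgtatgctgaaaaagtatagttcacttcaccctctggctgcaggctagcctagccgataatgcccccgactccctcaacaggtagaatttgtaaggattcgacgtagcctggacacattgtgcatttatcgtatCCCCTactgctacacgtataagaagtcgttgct
HSP12 (STRE, chrVI:106856-107155, plus strand): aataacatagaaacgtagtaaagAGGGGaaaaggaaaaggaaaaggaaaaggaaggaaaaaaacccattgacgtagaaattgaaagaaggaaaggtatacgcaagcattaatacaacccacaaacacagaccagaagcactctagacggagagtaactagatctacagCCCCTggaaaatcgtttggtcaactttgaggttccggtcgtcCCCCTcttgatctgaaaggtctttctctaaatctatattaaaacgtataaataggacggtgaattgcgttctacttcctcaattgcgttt
QCR6 (HAP, chrVI:224870-225169, minus strand): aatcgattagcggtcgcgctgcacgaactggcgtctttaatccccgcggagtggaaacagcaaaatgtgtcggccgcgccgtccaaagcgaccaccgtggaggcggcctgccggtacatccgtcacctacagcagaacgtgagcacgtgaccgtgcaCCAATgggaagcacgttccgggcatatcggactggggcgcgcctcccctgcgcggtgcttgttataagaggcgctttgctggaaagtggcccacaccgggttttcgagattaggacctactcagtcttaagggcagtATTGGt
POL1 (MCB, chrXIV:429687-429986, plus strand): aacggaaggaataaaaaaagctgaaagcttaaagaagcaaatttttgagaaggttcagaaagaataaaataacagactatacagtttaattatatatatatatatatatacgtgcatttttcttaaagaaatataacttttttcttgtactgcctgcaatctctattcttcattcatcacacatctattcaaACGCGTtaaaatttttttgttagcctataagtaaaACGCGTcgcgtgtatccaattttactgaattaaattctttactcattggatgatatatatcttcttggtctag
FUS1 (PRE, chrIII:71403-71702, plus strand): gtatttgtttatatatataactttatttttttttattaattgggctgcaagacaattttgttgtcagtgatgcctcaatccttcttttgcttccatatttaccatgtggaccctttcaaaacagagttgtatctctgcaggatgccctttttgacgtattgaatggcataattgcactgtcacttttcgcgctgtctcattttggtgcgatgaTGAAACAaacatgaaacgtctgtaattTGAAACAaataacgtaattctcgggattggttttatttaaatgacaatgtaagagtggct
ARG1 (Gcn4, chrXV:218811-219110, plus strand): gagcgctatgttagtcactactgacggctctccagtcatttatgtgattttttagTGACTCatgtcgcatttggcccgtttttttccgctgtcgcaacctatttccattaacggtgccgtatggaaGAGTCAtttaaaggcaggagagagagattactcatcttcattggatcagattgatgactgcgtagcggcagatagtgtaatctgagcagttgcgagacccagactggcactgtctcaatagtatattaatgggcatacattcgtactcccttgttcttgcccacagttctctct
A match is a description of letters and not a shown binding site. Over 5491 windows, AGGGG occurred in 23.5%, and in 76.1% of 46 windows of general stress genes. CCAAT occurred in 43.9% of all windows and in 84.8% of 46 windows of oxidative phosphorylation genes. ACGCGT occurred in 4.08% of all windows and in 42.1% of 57 windows of DNA replication genes. TGAAACA was found in 7.59% of all windows and in 64.9% of 37 windows of mating genes, and TGACTC in 8.65% of all and in 80.0% of 15 windows of arginine genes. The motif PAC (GATGAG) of ribosome assembly genes was in 18.8% of all windows, in 58.9% of 73 windows of 40S assembly genes and in 59.5% of 84 windows of 60S assembly genes. Each list is paired with a motif known for its genes, so these shares are no result of the counts. Among 2-fold calls in ZCZ01, AGGGG was in 29.5% of 508 windows of higher genes and 24.9% of 450 of lower genes. CCAAT was in 49.6% and ACGCGT in 7.33% of the lower, and TGAAACA in 11.0% and TGACTC in 10.0% of the higher. The motif MIG1 (CCCCGC) was in 9.56% of the lower and 2.76% of the higher, against 3.84% of all windows. AGGGG was also frequent in lists of which most members fell, with 41.3% of oxidative phosphorylation, 45.0% of TCA cycle and 45.5% of histone windows.

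PPZ1 itself did not change in 1 direction between 2 h and 0.5 h. PPZ1 (YML016C, chromosome XIII, 239458 to 241536 in R64) was at 89.4, 393 and 457 CPM at 2 h, against 508, 131 and 131 CPM at 0.5 h in ZCZ01. Experiment 1 fell while experiments 2 and 3 rose, and the 2 groups overlapped. The fitted log2 change was 0.07 (its standard error 0.73, edgeR adjusted p = 0.95), and with 1 experiment left out it ran from -0.89 to 1.73. In wild type libraries PPZ1 was at 10.7, 6.25 and 6.46 CPM at 2 h, against 8.76, 7.02 and 4.59 CPM at 0.5 h, so every ZCZ01 library of either time stood above every wild type one. The paralog PPZ2 had a log2 change of 0.02 in ZCZ01 (adjusted p = 0.96). Of the regulators, YPI1, an inhibitor of Glc7-type phosphatases, rose by 0.63 on the log2 scale (adjusted p = 0.027) and SIS2 fell by 0.64 (adjusted p = 0.022). Both calls were lost without replicate 2 or 3, with experiments 2 and 3 summed and with no replicate block. VHS3, with a log2 change of 0.40, CAB3, with -0.70, and GLC7, with 0.13, did not pass the test.

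Of 5658 genes tested, 531 were at least 2-fold higher and 469 at least 2-fold lower in ZCZ01 at 2 h than at 0.5 h, at an adjusted p under 0.05 in the quasi-likelihood test of edgeR, with Benjamini-Hochberg adjustment over these genes. These are 9.38% and 8.29% of the genes, and 17.7% together. At the adjusted p alone, 898 genes (15.9%) rose and 1035 (18.3%) fell, together 34.2%. List counts of ZCZ01 below use the adjusted p alone and stand beside these shares. Changes of 8-fold or more were called for 54 genes that rose and 20 that fell. Of the 2-fold calls, 478 of 531 and 462 of 469 had the same sign in all 3 experiments, and 243 and 210 reached 2-fold in each. The median log2 change of all genes was 0.015, and scaling by total counts alone moved it to 0.211, with 752 genes higher and 326 lower (69.8% of calls higher, against 53.1%). Without replicate 1 the counts were 731 and 546, without replicate 2 they were 309 and 349, and without replicate 3 they were 256 and 318. Summing experiments 2 and 3 gave 316 and 338. In these bulk samples, fewer cells of a type and less RNA per cell cannot be told apart.

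**Figure D1:**
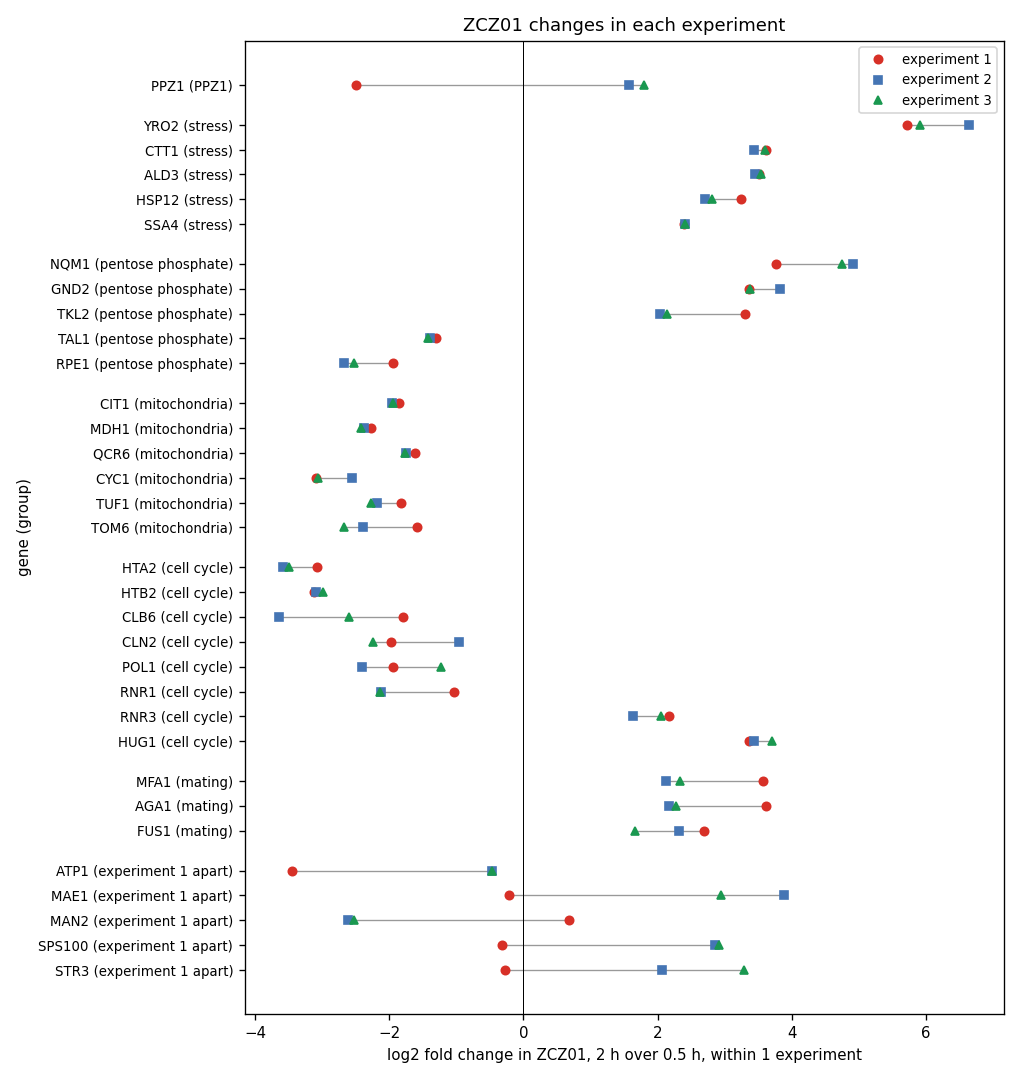
Log2 fold change of named genes in ZCZ01 at 2 h over 0.5 h (x axis), with 1 point for each experiment and the genes in rows by group. PPZ1 lay at -2.49 in experiment 1 and at 1.58 and 1.80 in experiments 2 and 3, while CTT1 and MDH1 lay close together in all 3.

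In wild type over the same interval, 306 genes (5.41%) were higher and 198 (3.5%) lower at 2 h than at 0.5 h under the same rule, 8.91% together. At the adjusted p alone 591 (10.4%) rose and 482 (8.52%) fell, together 19.0%. List counts of wild type below stand beside these shares. Genes higher in both strains numbered 30, which is 5.65% of those higher in ZCZ01 and 9.80% of those higher in wild type, and 39 were lower in both (8.32% and 19.7%). Genes called in opposite directions were 36 that rose in ZCZ01 and fell in wild type, and 5 that fell in ZCZ01 and rose in wild type. The difference between the strains (change in ZCZ01 minus change in wild type) was tested by itself. It was at least 2-fold and positive for 523 genes (9.24%) and at least 2-fold and negative for 693 (12.2%), 21.5% together, with 321 to 615 and 433 to 676 when 1 experiment was left out. Of the ZCZ01 calls, 265 of 531 genes that rose also had a positive called difference, and 285 of 469 that fell a negative one. The 2 h and 0.5 h libraries of a strain are shared by its own change and by the difference, and these counts are therefore not independent.

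**Figure D2:**
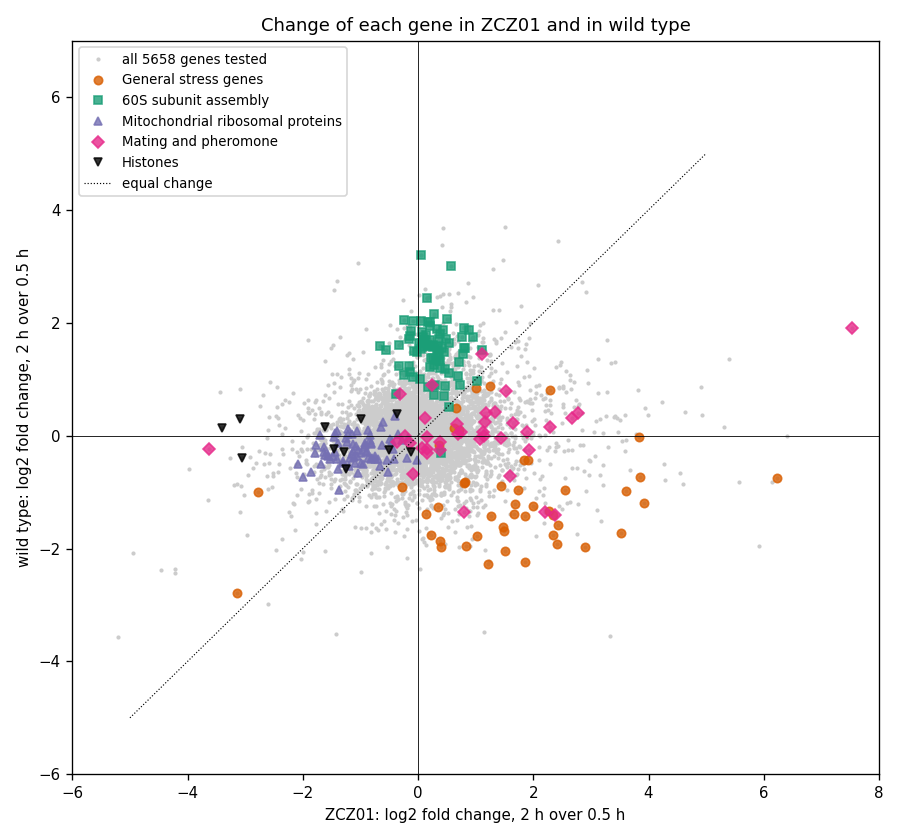
Each point is 1 gene, with its log2 fold change at 2 h over 0.5 h in ZCZ01 on the x axis and in wild type on the y axis, over 5658 genes. Most of the 46 general stress genes lie right of 0 and below 0, and most of the 84 genes of 60S assembly lie high on the y axis.

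Most general stress genes, the set that Msn2 and Msn4 are known to raise, rose. Of 46 tested, 32 rose and 2 fell in ZCZ01, with a median log2 change of 1.50 against 0.015 over all genes, while in wild type 0 rose and 32 fell, with a median of -1.26. With 1 experiment left out, 28 to 38 members rose. In this and each later list given with such a range, the highest count was without replicate 1 and the lowest without replicate 2 or 3. The change was above that of wild type for 36 of them. YRO2 had the largest rise of any called gene outside the lowest 0.25 of levels with the same sign in all 3 experiments, and encodes a membrane protein related to the heat shock protein Hsp30. It was at 676, 752 and 673 CPM at 2 h, against 11.6, 6.20 and 9.82 CPM at 0.5 h in ZCZ01. All 2 h libraries stood far above all 0.5 h libraries (log2 fold change 6.22 with a standard error of 0.24, adjusted p = 1.4e-10). The cytosolic catalase gene CTT1 was at 292, 468 and 442 CPM at 2 h, against 22.5, 41.9 and 35.2 CPM at 0.5 h, or 3.60 as a log2 fold change (standard error 0.19, adjusted p = 2.3e-09). CTT1 was higher in each 2 h library than in any 0.5 h library of ZCZ01. In wild type CTT1 was at 18.9, 17.2 and 21.7 CPM at 2 h, against 23.5, 49.1 and 46.5 CPM at 0.5 h. HSP12, for a small membrane-protecting heat shock protein, was at 2850, 4920 and 4746 CPM at 2 h, against 298, 749 and 676 CPM at 0.5 h in ZCZ01 (log2 fold change 2.89, adjusted p = 4.8e-05). For HSP12, all ZCZ01 libraries of 2 h lay above all of 0.5 h. Wild type libraries had 267, 369.8 and 345 CPM at 2 h, against 621, 1701 and 1599 CPM at 0.5 h for HSP12. YGP1, for a secreted glycoprotein of starved cells, rose by 3.92, and ALD3, an aldehyde dehydrogenase gene, by 3.53. The members that fell were TMA10, a ribosome-associated protein gene (log2 change -3.15), and MPC3, a mitochondrial pyruvate carrier gene (-2.77).

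**Figure D3:**
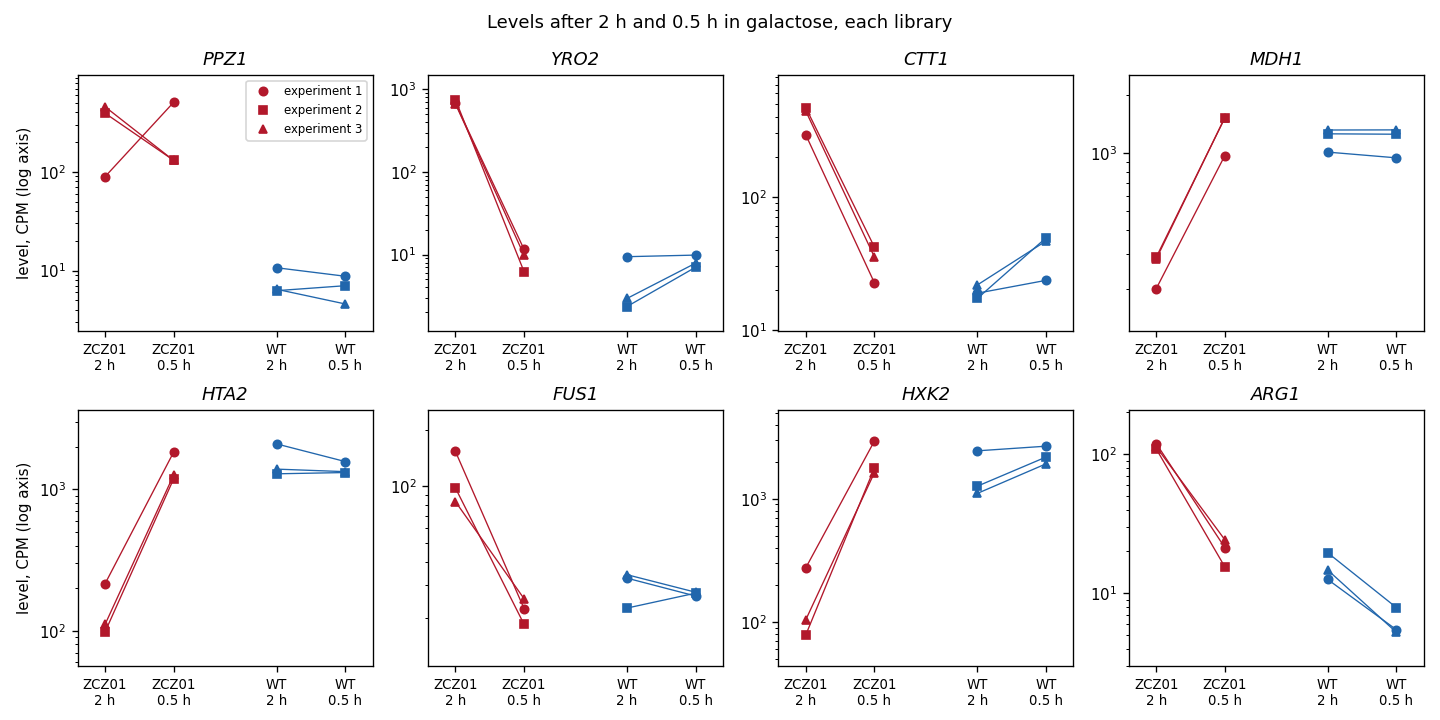
Level of 8 genes in CPM (log axis) in each library at 2 h and at 0.5 h, ZCZ01 in red and wild type in blue, with a marker and a line for each experiment. In ZCZ01 the 2 h and 0.5 h libraries do not overlap for the genes other than PPZ1.

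Many genes for defence against oxidants and aldehydes rose, and a few fell. Of 44 antioxidant genes, 17 rose and 6 fell (median log2 change 0.40), against 0 and 14 in wild type, and with 1 experiment left out 8 to 20 rose. Over all genes 15.9% rose and 18.3% fell in ZCZ01, so that the antioxidant genes fell no more often than all genes. The peroxiredoxin gene TSA2 was at 199, 261 and 283 CPM at 2 h, against 14.0, 42.6 and 27.7 CPM at 0.5 h in ZCZ01, with a log2 fold change of 3.20 (adjusted p = 5.6e-08). The TSA2 levels of both times did not overlap in ZCZ01, with 2 h the higher. SRX1, for the sulfiredoxin that repairs peroxiredoxins, rose by 2.67 and AHP1, another peroxiredoxin gene, by 1.16, and AHP1 fell by 2.02 in wild type (adjusted p = 6e-06). The thioredoxin gene TRX1 went the other way, with 245, 320.4 and 332 CPM at 2 h, against 897, 967 and 938 CPM at 0.5 h in ZCZ01 (log2 fold change -1.65, adjusted p = 1.1e-06). TRX1 thus lay below its 0.5 h level in every experiment and without overlap. Of 19 aldehyde and ketone reductase genes, 11 rose and 2 fell (median 0.90, 5 to 12 higher with 1 experiment left out). Among them ARI1 rose by 4.92, YJR096W by 2.56 and GRE2, for methylglyoxal reductase, by 1.92 on the log2 scale.

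Chaperone genes split. Of 36 tested, 11 rose and 13 fell in ZCZ01 (6 to 15 higher and 7 to 16 lower with 1 experiment left out), while 28 fell in wild type. The shares over all genes were 15.9% higher and 18.3% lower in ZCZ01, and 8.52% lower in wild type. The stress-induced Hsp70 gene SSA4 was at 742, 1131 and 1072 CPM at 2 h, against 141, 212 and 201 CPM at 0.5 h in ZCZ01 (log2 fold change 2.41, standard error 0.19, adjusted p = 1.5e-07), and it fell by 1.91 in wild type. SSA4 was higher in each 2 h library than in any 0.5 h library of ZCZ01. SSA3, another stress-induced Hsp70 gene, rose by 3.07. Their constitutive relatives SSA1 and SSA2, which share most of their coding sequence, fell by 1.77 and 1.89, HSC82, for the constitutive Hsp90, by 1.81, and HSP60, for the chaperonin of the mitochondrial matrix, by 2.17. The trehalose synthase gene TPS1 rose by 0.72 (adjusted p = 0.0034), a call that was lost without replicate 2 or 3 and with experiments 2 and 3 summed. Autophagy genes had 16 of 44 members higher and 2 lower (median 0.56), and 3 to 22 higher with 1 experiment left out.

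Most genes of the mitochondrial ribosome, protein import, respiration and the TCA cycle fell. Of 76 genes of mitochondrial ribosomal proteins, 62 fell and 0 rose in ZCZ01 (median log2 change -1.06), against 4 that fell in wild type (median -0.29). Mitochondrial protein import had 27 of 37 members lower, oxidative phosphorylation 31 of 46, and the TCA cycle 17 of 20, with medians of -1.06, -0.76 and -1.23. With 1 experiment left out, the numbers that fell were 35 to 67, 19 to 30, 13 to 37 and 11 to 16 in these 4 lists. MDH1, for the malate dehydrogenase of the mitochondrial matrix, was at 199.6, 289.9 and 284 CPM at 2 h, against 969, 1514 and 1523 CPM at 0.5 h in ZCZ01 (log2 fold change -2.37, standard error 0.16, adjusted p = 2.3e-08). For MDH1, all ZCZ01 libraries of 2 h lay below all of 0.5 h. In wild type MDH1 was at 1010, 1255 and 1313 CPM at 2 h, against 944, 1249 and 1315 CPM at 0.5 h, with overlapping groups.

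CYC1, for cytochrome c, was at 35.5, 65.4 and 45.8 CPM at 2 h, against 312, 391 and 390.1 CPM at 0.5 h in ZCZ01 (log2 fold change -2.92, adjusted p = 3.5e-07). The CYC1 levels of both times did not overlap in ZCZ01, with 2 h the lower. QCR6, for a subunit of cytochrome bc1, was at 591, 549 and 544 CPM at 2 h, against 1820, 1852 and 1848 CPM at 0.5 h (log2 fold change -1.72, adjusted p = 2e-07). QCR6 thus lay below its 0.5 h level in every experiment and without overlap. The citrate synthase gene CIT1 fell by 1.92, the aconitase gene ACO1 by 2.02, ATP20, for a subunit of the ATP synthase, by 1.78, and TUF1, for the mitochondrial elongation factor Tu, by 2.11. MRPL39, MRPL20 and MNP1, for proteins of the large mitochondrial ribosomal subunit, fell by 2.09, 1.71 and 1.62. Of the import genes, TOM6 and TOM5, for small subunits of the outer membrane translocase, fell by 2.22 and 1.94, and ERV1, for the sulfhydryl oxidase of the intermembrane space, by 2.35. CIT3, a minor citrate synthase gene of the TCA list, rose by 1.24 (adjusted p = 0.025), a call that was lost without replicate 2 and with no replicate block.

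**Figure D4:**
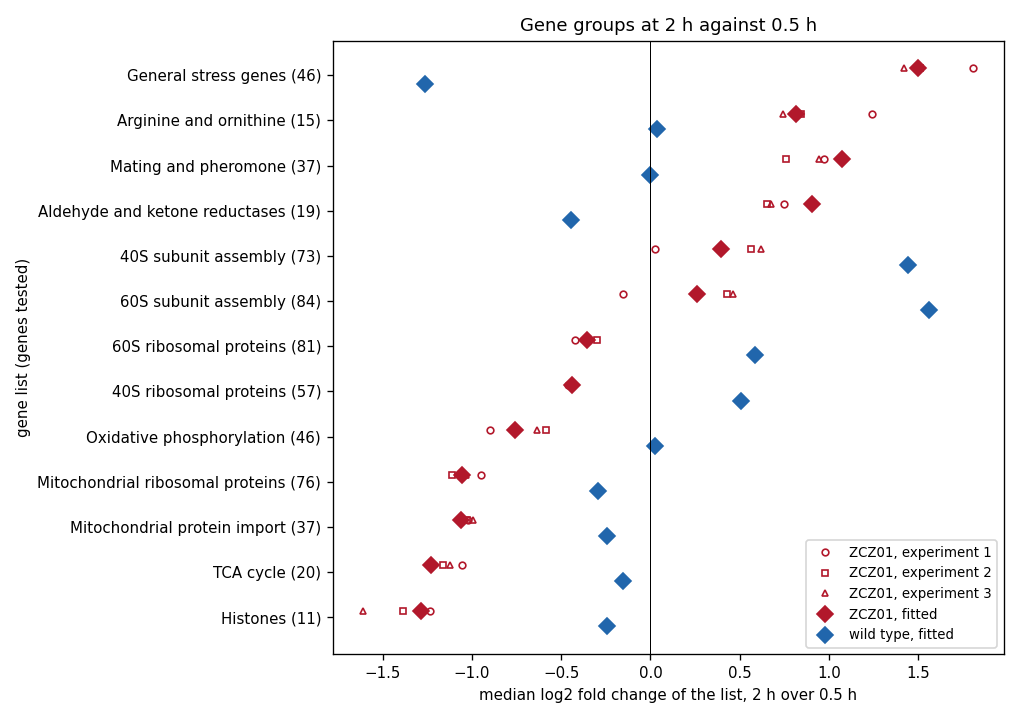
Median log2 fold change at 2 h over 0.5 h of 13 gene lists, with filled diamonds for the fitted values of ZCZ01 (red) and wild type (blue) and open markers for each ZCZ01 experiment. General stress genes had medians of 1.50 in ZCZ01 and -1.26 in wild type, and 60S assembly genes of 0.26 and 1.56.

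Most genes of ribosome assembly rose in wild type, and fewer of them rose in ZCZ01. Of 84 genes of 60S assembly, 15 rose and 1 fell in ZCZ01 (median log2 change 0.26), while 81 rose in wild type (median 1.56), and the change in ZCZ01 was below that in wild type for 67. For 40S assembly, 24 of 73 rose in ZCZ01 against 64 in wild type, with medians of 0.40 and 1.45 and a change below that in wild type for 46. Over all genes, 15.9% rose in ZCZ01 and 10.4% in wild type, and 1019 of 5658 had a change below that in wild type. In ZCZ01 the count of 60S assembly genes that rose was thus near the share over all genes, and that of 40S assembly was above it. The counts in ZCZ01 rested on experiments 2 and 3: 57 and 52 genes of 60S and 40S assembly rose without replicate 1, 2 and 1 without replicate 2, and 2 and 1 without replicate 3. KRR1, an assembly factor of the small subunit, was at 158, 181 and 146 CPM at 2 h, against 98.1, 86.8 and 86.7 CPM at 0.5 h in ZCZ01 (log2 fold change 0.84, adjusted p = 0.0023). KRR1 was higher in each 2 h library than in any 0.5 h library of ZCZ01. Wild type libraries had 187, 190.0 and 186 CPM at 2 h, against 43.8, 25.4 and 39.3 CPM at 0.5 h for KRR1 (log2 fold change 2.37, adjusted p = 1.9e-06). The difference of its changes was -1.55 (adjusted p = 0.00019). KRR1 had different starting levels in the strains, with 86.7 to 98.1 CPM in ZCZ01 at 0.5 h and 25.4 to 43.8 CPM in wild type. At 2 h the levels were closer, with 146 to 181 CPM and 186 to 190.0 CPM. The smaller rise of KRR1 in ZCZ01 thus went with a higher start. The 60S assembly gene ARX1 was higher in ZCZ01 than in wild type at both times. It had 51.92 to 93.81 CPM against 20.32 to 49.81 CPM at 0.5 h, and 111.5 to 127.6 CPM against 76.63 to 96.13 CPM at 2 h. Whether the assembly lists differed between the strains at 0.5 h was not tested. The assembly genes SNU13, UTP11, BUD20 and RRS1 rose in ZCZ01 by 1.35, 0.89, 1.12 and 1.03. The calls of KRR1 and SNU13 were lost without replicate 2 or 3, and that of UTP11 without replicate 2.

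Some ribosomal protein genes fell in ZCZ01, by small amounts. Of 81 genes of the 60S subunit, 31 fell and 1 rose, and of 57 of the 40S subunit, 29 fell and 1 rose, with medians of -0.35 and -0.44. In wild type, 40 and 28 rose and 0 and 0 fell. Of all genes, 15.9% rose and 18.3% fell in ZCZ01, and 10.4% rose in wild type. With 1 experiment left out, 2 to 51 and 2 to 41 genes fell in ZCZ01, and with no replicate block 14 and 11. The genes that rose with 1 experiment left out were 0 to 15 and 1 to 9. RPL18B was at 61.1, 148 and 130.0 CPM at 2 h, against 164, 474 and 435 CPM at 0.5 h in ZCZ01 (log2 fold change -1.62, adjusted p = 2.4e-06). For RPL18B, all ZCZ01 libraries of 2 h lay below all of 0.5 h. RPS4A fell by 0.94, and RPS14B went against the list with a rise of 1.46 (adjusted p = 2.9e-06). Most of these genes have a close copy, and reads that fit both copies may have been split between them.

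Most histone genes and some genes of DNA replication fell. Of 11 histone genes, 9 fell and 0 rose in ZCZ01 (median log2 change -1.29), against 1 that fell in wild type. HTA2, for histone H2A, was at 215, 98.1 and 111 CPM at 2 h, against 1832, 1186 and 1261 CPM at 0.5 h in ZCZ01 (log2 fold change -3.40, standard error 0.18, adjusted p = 2.4e-09). The HTA2 levels of both times did not overlap in ZCZ01, with 2 h the lower. Wild type libraries had 2092, 1286 and 1388 CPM at 2 h, against 1570, 1313 and 1332 CPM at 0.5 h for HTA2. The wild type groups overlapped. HTB2, for histone H2B, fell by 3.09, HHF2 and HHF1, for histone H4, by 3.05 and 1.61, and HTZ1, for the variant H2A.Z, by 1.29. Of 57 DNA replication genes, 17 fell and 3 rose (median -0.26, 7 to 20 lower with 1 experiment left out), where 18.3% of all genes fell and 15.9% rose. POL1, for the catalytic subunit of DNA polymerase alpha, was at 37.6, 25.3 and 54.3 CPM at 2 h, against 148, 139 and 129 CPM at 0.5 h (log2 fold change -1.84, adjusted p = 3.2e-05). POL1 thus lay below its 0.5 h level in every experiment and without overlap. POL30, for the sliding clamp PCNA, fell by 1.60.

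Among genes of Start, the commitment to a new cell cycle, 8 of 24 fell and 1 rose in ZCZ01 (0 to 3 higher and 5 to 11 lower with 1 experiment left out), and 0 fell in wild type. The G1 cyclin gene CLN2 was at 26.2, 40.1 and 15.8 CPM at 2 h, against 106, 79.0 and 80.3 CPM at 0.5 h (log2 fold change -1.74, adjusted p = 0.00032). CLN2 was lower in each 2 h library than in any 0.5 h library of ZCZ01. PCL1, for a cyclin of Pho85, fell by 1.40, the S phase cyclin gene CLB6 by 3.05 and YOX1, for a repressor of early cell cycle genes, by 2.63. The member that rose was BCK2 (1.12, adjusted p = 0.0014), an activator of G1 genes, whose call was lost without replicate 2 or 3. HO, the mating type endonuclease gene that is switched on in late G1, was at 32.7, 9.66 and 17.0 CPM at 2 h, against 241, 237 and 236 CPM at 0.5 h (log2 fold change -3.63, adjusted p = 3.8e-08). For HO, all ZCZ01 libraries of 2 h lay below all of 0.5 h. Of 37 genes of septins and morphogenesis kinases, 9 fell and 1 rose (0 to 5 higher and 5 to 14 lower with 1 experiment left out), among those that fell the bud neck kinase genes HSL1, KCC4 and GIN4 (fell by 1.36, 1.76 and 1.24) and SWE1, for the kinase that restrains mitosis (fell by 1.59). Of cell separation genes, 6 of 27 rose and 0 fell (3 to 11 higher with 1 experiment left out), with the glucanase genes SCW11 (1.27) and DSE2 (1.08) and the chitinase gene CTS1 (1.00) among them. Of mitotic cyclins and mitosis genes, 4 of 49 rose and 11 fell (0 to 6 higher and 3 to 9 lower with 1 experiment left out), and FKH2, for a factor of genes of the G2 phase, went against most called members with a rise of 1.51. The list counts of this paragraph stand beside 15.9% of all genes that rose and 18.3% that fell. The call of DSE2 was lost with no replicate block, that of CTS1 without replicate 2 and that of FKH2 without replicate 3.

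Of the genes of ribonucleotide reductase and DNA building blocks, 4 of 17 rose and 4 fell, against 15.9% and 18.3% of all genes, with 2 to 7 higher and 1 to 6 lower with 1 experiment left out. RNR1, for the main large subunit of ribonucleotide reductase, was at 269, 76.6 and 72.3 CPM at 2 h, against 551, 337 and 324 CPM at 0.5 h in ZCZ01 (log2 fold change -1.80, adjusted p = 0.0011), while its damage-induced paralog RNR3 was at 75.8, 36.4 and 35.0 CPM at 2 h, against 15.8, 10.8 and 7.51 CPM at 0.5 h (2.09, adjusted p = 3.6e-05). The RNR1 levels of both times did not overlap in ZCZ01, with 2 h the lower. RNR3 thus lay above its 0.5 h level in every experiment and without overlap. HUG1, for a small inhibitor of the same enzyme that is induced by DNA damage, was at 30.5, 63.2 and 53.1 CPM at 2 h, against 1.83, 4.65 and 2.89 CPM at 0.5 h (3.95, adjusted p = 7.3e-05). HUG1 was higher in each 2 h library than in any 0.5 h library of ZCZ01. The call of RNR1 was lost with no replicate block. CDC21, for thymidylate synthase, fell by 1.65, a call that was lost without replicate 2 or 3. DNA repair genes had 4 of 48 members higher and 4 lower (1 to 12 higher and 1 to 3 lower with 1 experiment left out).

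Mating genes rose in many cases. Of 37 tested, 19 rose and 1, which was HO, fell in ZCZ01 (median log2 change 1.07), against 2 and 1 in wild type, and 13 to 23 rose with 1 experiment left out. FUS1, for a cell fusion protein induced by pheromone, was at 153, 98.1 and 83.1 CPM at 2 h, against 22.5, 18.6 and 25.4 CPM at 0.5 h in ZCZ01 (log2 fold change 2.29, standard error 0.22, adjusted p = 1e-06). For FUS1, all ZCZ01 libraries of 2 h lay above all of 0.5 h. Wild type libraries had 32.7, 22.7 and 34.1 CPM at 2 h, against 26.3, 27.2 and 27.5 CPM at 0.5 h for FUS1. The a-factor gene MFA1 was at 4289, 2261 and 2371 CPM at 2 h, against 359, 517 and 468 CPM at 0.5 h in ZCZ01 (log2 fold change 2.68, adjusted p = 1.9e-07). The MFA1 levels of both times did not overlap in ZCZ01, with 2 h the higher. Experiment 1 was the highest at 2 h for both genes. MFA2 rose by 1.89, the agglutinin genes AGA1 and AGA2 by 2.78 and 1.65, the receptor gene STE2 by 1.19 and BAR1, for the protease that degrades alpha-factor, by 1.33. The a-cell gene STE6 had 61, 70 and 141 counts at 2 h, against 102, 47 and 70 at 0.5 h, and did not rise in experiment 1. Genes of the other mating type were read at low counts at 2 h. MF(ALPHA)1 had 35, 5 and 6 counts at 2 h in ZCZ01, against 0, 0 and 0 at 0.5 h, and MF(ALPHA)2 had 7, 0 and 4, against 0, 0 and 0. STE3, the a-factor receptor gene of alpha cells, had 41, 13 and 17 counts at 2 h, against 3, 1 and 2 at 0.5 h. In wild type at 2 h MF(ALPHA)1, MF(ALPHA)2 and STE3 had 0 to 6 counts. SAG1, another alpha-cell gene, had 48, 39 and 28 counts at 2 h in ZCZ01, against 10, 29 and 22 at 0.5 h. In wild type at 2 h SAG1 had 13, 16 and 12 counts. The part of the alpha-cell genes in the rise of the mating genes was not tested.

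Genes of sugar use changed in both directions. Of hexose transporters and sensors, 5 of 13 rose and 5 fell (3 to 4 higher and 4 to 5 lower with 1 experiment left out), and of glycolysis and fermentation, 12 of 34 rose and 10 fell (7 to 17 higher and 2 to 11 lower with 1 experiment left out), where 18 fell in wild type. Of glyoxylate and gluconeogenesis genes, 9 of 23 rose and 4 fell (1 to 12 higher and 3 to 4 lower with 1 experiment left out), and of Snf1 and glucose repression genes, 3 of 25 rose and 8 fell (1 to 7 higher and 7 to 9 lower with 1 experiment left out), against 15.9% of all genes that rose and 18.3% that fell. HXK2, for the hexokinase of glucose-grown cells, was at 276, 78.8 and 105 CPM at 2 h, against 2948, 1782 and 1633 CPM at 0.5 h in ZCZ01 (log2 fold change -3.97, standard error 0.26, adjusted p = 3e-08). HXK2 thus lay below its 0.5 h level in every experiment and without overlap. Wild type libraries had 2453, 1267 and 1107 CPM at 2 h, against 2675, 2183 and 1923 CPM at 0.5 h for HXK2. HXK1, for the other hexokinase, fell by 4.22, SUC2, for invertase, fell by 4.46, and MAL12, for maltase, fell by 4.94. The probe of HXK1 overlaps another gene on its strand, and MAL12 has a near-identical copy. Of the hexose transporter genes, HXT5 rose by 3.09 and HXT4 by 2.79, while HXT7, nearly identical to HXT6, fell by 2.97. The glycolytic gene TDH1 rose by 2.87 and PDC6, a minor pyruvate decarboxylase gene, by 5.40. JEN1, for the lactate transporter, fell by 3.02 and CAT8, for an activator of gluconeogenic genes, by 2.86, whereas CIT2, for the peroxisomal citrate synthase, rose by 1.96.

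Of 7 GAL genes, 4 fell and 0 rose between 0.5 h and 2 h in ZCZ01 (0 to 1 higher and 2 to 4 lower with 1 experiment left out). GAL2, for the galactose permease, was at 1603, 1881 and 1804 CPM at 2 h, against 6999, 8809 and 8429 CPM at 0.5 h (log2 fold change -2.20, adjusted p = 8.9e-08). GAL2 was lower in each 2 h library than in any 0.5 h library of ZCZ01. GAL3, for the inducer, fell by 1.71 and GAL10, for the epimerase, by 0.70, and the call of GAL10 was lost without replicate 2 or 3. GAL1, for galactokinase, was at 8158, 6086 and 6362 CPM at 2 h, against 8076, 10660 and 10710 CPM at 0.5 h, with overlapping groups (log2 fold change -0.54, adjusted p = 0.049), and this call was lost with no replicate block, with every other scaling and with DESeq2. Genes of the pentose phosphate pathway moved both ways. NQM1, a transaldolase paralog, was at 231, 837 and 842 CPM at 2 h, against 15.8, 26.4 and 30.1 CPM at 0.5 h (log2 fold change 4.59, adjusted p = 3.8e-08), and TAL1, the main transaldolase gene, at 197, 242 and 248 CPM at 2 h, against 486, 639 and 669.8 CPM at 0.5 h (-1.38, adjusted p = 6.4e-06). For NQM1, all ZCZ01 libraries of 2 h lay above all of 0.5 h. The TAL1 levels of both times did not overlap in ZCZ01, with 2 h the lower. GND2 and TKL2, for minor isozymes, rose by 3.59 and 2.44, while RPE1, for ribulose phosphate epimerase, fell by 2.40. Over 14 genes of the pathway, 6 rose and 3 fell. The GAL and pentose phosphate counts stand beside 15.9% of all genes that rose and 18.3% that fell. The 3 genes of the pathway that fell are near that share.

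Most genes of arginine synthesis rose. Of 15 genes of arginine and ornithine, 10 rose and 0 fell in ZCZ01 (median log2 change 0.82), against 2 and 1 in wild type, and 4 to 11 rose with 1 experiment left out. ARG1, for argininosuccinate synthase, was at 119, 109 and 113 CPM at 2 h, against 21.3, 15.5 and 24.3 CPM at 0.5 h (log2 fold change 2.47, adjusted p = 2.3e-07). ARG1 thus lay above its 0.5 h level in every experiment and without overlap. CPA1, for carbamoyl phosphate synthase, rose by 2.93, and ARG3 by 2.71, a call that was lost without replicate 3. In lysine synthesis 6 of 10 genes rose (2 to 9 with 1 experiment left out), among them LYS1 (1.58) and LYS20 (1.26). Of serine, glycine and one-carbon genes, 2 of 20 rose and 6 fell (1 to 5 higher and 3 to 8 lower with 1 experiment left out). SER3, one of those that rose, for the first enzyme of serine synthesis, was at 371, 798 and 775 CPM at 2 h, against 17.1, 24.0 and 35.2 CPM at 0.5 h (log2 fold change 4.64, adjusted p = 2.3e-09). SER3 was higher in each 2 h library than in any 0.5 h library of ZCZ01. MET6, for methionine synthase, rose by 1.32, where of sulfur and methionine genes 5 of 32 rose and 4 fell (1 to 12 higher and 2 to 4 lower with 1 experiment left out). Of aromatic amino acid and histidine genes, 4 of 22 rose and 4 fell (2 to 8 higher and 2 to 6 lower with 1 experiment left out). The counts of the sulfur and aromatic lists stood near the shares over all genes, 15.9% higher and 18.3% lower. The aromatic amino acid transaminase gene ARO9 and the decarboxylase gene ARO10 fell by 3.15 and 2.60.

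Genes of nitrogen catabolite repression moved both ways. Of its list, 13 of 39 rose and 9 fell, with 6 to 14 higher and 3 to 11 lower with 1 experiment left out. This and the list counts that follow stand beside 15.9% of all genes that rose and 18.3% that fell. GAP1, for the general amino acid permease, was at 118, 106 and 91.6 CPM at 2 h, against 18.9, 10.1 and 14.4 CPM at 0.5 h (log2 fold change 2.84, adjusted p = 1.9e-07), PUT1, for proline oxidase, rose by 2.52 and the permease gene AGP1 by 1.39. For GAP1, all ZCZ01 libraries of 2 h lay above all of 0.5 h. The permease genes GNP1 and TAT1 fell by 1.79 and 1.22. In the iron regulon 7 of 33 rose and 8 fell (2 to 7 higher and 5 to 10 lower with 1 experiment left out), and the members of the high-affinity uptake system FET3 and FTR1 were among those that fell. FET3, for the iron oxidase of the cell surface, was at 47.5, 59.5 and 52.0 CPM at 2 h, against 319, 317 and 321 CPM at 0.5 h (log2 fold change -2.59, adjusted p = 2.2e-08). The FET3 levels of both times did not overlap in ZCZ01, with 2 h the lower. Its partner FTR1, the siderophore transporter gene SIT1 and FIT2, for a cell wall mannoprotein, fell by 1.56, 2.18 and 2.63. Of purine genes, IMD2 and IMD3, close copies for IMP dehydrogenase, fell by 3.64 and 1.55, with 7 of 30 genes of the list lower, 2 higher, and 16 higher in wild type. The purine counts in ZCZ01 were 0 to 9 higher and 3 to 11 lower with 1 experiment left out. PHO5, for the secreted acid phosphatase, rose by 3.51, SNZ1, for vitamin B6 synthesis, by 3.05, and the polyamine transporter gene TPO2 by 4.90. Of potassium, sodium and proton transport genes, 6 of 20 rose and 2 fell (2 to 9 higher and 0 to 4 lower with 1 experiment left out). The proton pump gene PMA1 rose by 1.18, a call lost without replicate 2 or 3, and PMP1, for its small regulator, by 2.97, while STL1, for the glycerol symporter, fell by 2.00.

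Some genes moved in opposite directions in the 2 strains, and the difference between the strains was then tested in itself. YGP1 was at 1597, 2079 and 2042 CPM at 2 h, against 80.4, 159.6 and 149 CPM at 0.5 h in ZCZ01. YGP1 thus lay above its 0.5 h level in every experiment and without overlap. In wild type YGP1 was at 81.7, 87.6 and 71.1 CPM at 2 h, against 160.4, 204 and 189 CPM at 0.5 h, and the change of ZCZ01 exceeded that of wild type by 5.12 on the log2 scale (adjusted p = 5.1e-10). ALD3, PHM8, for a lysophosphatidic acid phosphatase, GPG1, for a G protein gamma subunit mimic, and ROQ1, for a regulator of protein degradation, likewise rose in ZCZ01 (by 3.53, 3.11, 3.18 and 1.15) and fell in wild type (by 1.72, 1.32, 1.50 and 3.48). ROQ1 was not called in ZCZ01 without replicate 2 or 3. AAH1, for adenine deaminase, had 95.4, 88.5 and 82.0 CPM at 2 h, against 90.2, 55.8 and 57.8 CPM at 0.5 h in ZCZ01, with overlapping groups. In wild type AAH1 was at 213, 202 and 196 CPM at 2 h, against 27.4, 13.2 and 19.0 CPM at 0.5 h, without overlap. Its difference was -2.97 (adjusted p = 3.3e-07), and that of DBP2, for an RNA helicase, was -3.11 (adjusted p = 8.7e-05). The AAH1 levels of the strains were apart at both times, with ZCZ01 the higher at 0.5 h and the lower at 2 h. Its negative difference therefore holds a higher start in ZCZ01 as well as a lower level at 2 h.

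In a few genes experiment 1 stood apart from the others. SPS100, a spore wall gene, was at 2.18, 19.3 and 21.5 CPM at 2 h, against 3.05, 1.55 and 1.73 CPM at 0.5 h in ZCZ01, so that experiments 2 and 3 rose and experiment 1 did not, and the groups overlapped. MAN2, for mannitol dehydrogenase, had 16.4, 3.72 and 3.39 CPM at 2 h, against 9.75, 29.4 and 25.4 CPM at 0.5 h, with experiment 1 higher at 2 h and the others lower. ATP1, for a subunit of the ATP synthase, was at 169.6, 774 and 782 CPM at 2 h, against 1862, 1070 and 1088 CPM at 0.5 h, a larger fall in experiment 1 (-3.45) than in experiments 2 and 3 (-0.47 and -0.47). The calls of SPS100, MAN2 and ATP1 (log2 changes 2.51, -1.42 and -1.35) and of the malic enzyme gene MAE1 and STR3, for a sulfur enzyme (1.79 and 2.11), were lost without replicate 2 or 3. The probes of GRE2, SSA1, RPE1, GAL3, POL30, CDC21, KCC4, FUS1, STE3, GNP1, ARO9, CTS1, PHM8, MNP1, VHS3, MAE1 and ATP1 overlap a gene on the opposite strand, and those of TKL2, HXK1 and PMP1 one on the same strand, and their reads could not be told apart from those of the neighbour where strand was not used in counting.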

How the data were processed

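The authors made 3 count tables, 1 for each experiment, by aligning single-end QuantSeq reads with Bowtie2 (no version stated) and counting reads in gene probes, and the deposited values are whole-number counts with no scaling. No source used here states the genome build or the strand setting. Of 6692 probes, 6008 matched a gene of the R64 annotation, and 6000 equal a gene with 100 nt added downstream. Probes without a match held 1.902% of counts and stayed in the fit. Samples were assigned by the library names, since the sample titles give other times for 12 libraries.

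All 18 libraries were fitted together in edgeR 4.0.16 (R 4.3.3) after filterByExpr, which left 5658 probes, with TMM scaling. The model held a block for each strain in each experiment and effects of 2 h and 4 h in each strain, and it was tested by the robust quasi-likelihood F test with Benjamini-Hochberg adjustment over all probes. The difference between the strains was tested with a block for each experiment and time. Counts of genes use an adjusted p under 0.05 and a 2-fold change, while single genes and list members pass at the adjusted p alone. CPM values are TMM-scaled, and log2 values per library use a prior count of 2. The block rests on experiment numbers in the library names. Deviations of the 2 h and 0.5 h libraries of an experiment correlated at 0.473 to 0.677 in ZCZ01, and those of experiments 2 and 3 across numbers at 0.514 and 0.53.

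The 58 lists and the members were chosen with earlier results of these data known. Genes were named by rule: the Ppz list, the 15 largest called changes in each direction outside the lowest 0.25 of levels with the same sign in all 3 experiments, up to 5 members of each list by adjusted p and members called against the rest of their list, the 8 largest differences between strains in each direction, up to 6 genes called oppositely in the strains and up to 5 whose experiment 1 stands farthest apart. Not every gene that the rule names is reported here. STE3 and other mating type and marker genes were read as a strain check. Promoter letters came from RefSeq's R64 genome. Alternatives were no replicate block, 1 block per experiment, RLE, upper quartile and total count scaling, no filter, a mean of at least 50 counts, DESeq2 1.42.0, leaving out each replicate, experiments 2 and 3 summed, the 6 libraries of a strain alone, no fold minimum and the times of the titles. The fits were tested on simulated data. In ZCZ01, edgeR called 58.2% of 67 genes given a 2-fold change and 97% of 67 given a 4-fold change. For the difference between the strains it called 8.96% and 79.1%, so that most simulated 2-fold differences were missed. Of genes given no change, 0.257% and 0.0183% were called. The simulated counts came from the model with a block for each strain in each experiment, also where the difference was fitted with the other block. Fewer genes were changed than were called in ZCZ01, and libraries were drawn independently, unlike the close experiments 2 and 3. These rates may therefore not hold for the real fits. Figures used matplotlib 3.10.9 with pandas 2.3.3 and Python 3.11.15.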

Additional observations from a re-analysis of the deposited data

Results flagged for a closer look

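The change over time differed between the strains by a test of the difference itself, with the interaction term of edgeR's quasi-likelihood fit. At an adjusted p under 0.05 and a 2-fold difference, 523 genes changed by more in ZCZ01 than in wild type and 693 by less. With 1 experiment left out, the counts were 321 to 615 and 433 to 676. Both lowest counts were those without replicate 3. A difference of changes does not say whether the strains were apart at 0.5 h, at 2 h or at both, and levels at 0.5 h were not tested between the strains.

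Among the named genes whose change in ZCZ01 exceeded that in wild type, the difference on the log2 scale was 6.95 for YRO2 (adjusted p = 8.9e-08), 5.50 for NQM1 (adjusted p = 6.1e-08), 5.22 for ALD3 (adjusted p = 1.8e-09) and 5.12 for YGP1 (adjusted p = 5.1e-10). It was 4.81 for HSP12 (adjusted p = 2.5e-10), 4.71 for ROQ1 (adjusted p = 1.9e-06), 4.69 for GPG1 (adjusted p = 8.2e-06) and 4.68 for GRE1, a hydrophilin gene of dry and osmotic stress (adjusted p = 3.8e-06). CTT1 had 4.58 (adjusted p = 5.1e-09) and PHM8 had 4.42 (adjusted p = 6.8e-06). The change of each of these genes was higher in ZCZ01 in 3 of 3 experiments.

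Named genes whose change in ZCZ01 was below that in wild type were HXK2 (-3.37, adjusted p = 2.9e-08), the histone genes HTA2 (-3.54, adjusted p = 1.8e-09) and HTB2 (-3.40, adjusted p = 6.2e-09), and HO (-3.39, adjusted p = 1.2e-06). SFG1, for a factor of growth and cell separation, had -3.67 (adjusted p = 7.3e-05), and URA1, for dihydroorotate dehydrogenase, had -3.10 (adjusted p = 6.6e-07). The values were -2.97 for AAH1 (adjusted p = 3.3e-07) and -3.11 for DBP2 (adjusted p = 8.7e-05). The change of each of these genes was lower in ZCZ01 in 3 of 3 experiments. These values rest on the time and strain of the library names, and under the times of the sample titles no gene passed the test of the difference.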

How the results depend on the processing

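The pairing of libraries by experiment number was taken into the fit as a block. Without the replicate block the ZCZ01 calls were 417 higher and 397 lower, those of wild type 265 and 161, and the differences 395 and 501, all within 1.5 times the values with it. In ZCZ01, 256 to 731 genes rose and 318 to 546 fell with 1 replicate left out, in wild type 178 to 420 and 93 to 321, and the difference was positive for 321 to 615 and negative for 433 to 676. With no fold minimum, 898 and 1035 genes passed in ZCZ01, 591 and 482 in wild type, and 706 and 1019 for the difference. Experiments 2 and 3 summed gave 316 higher in ZCZ01, and 193 and 109 in wild type. A mean of at least 50 counts gave 307 higher in ZCZ01 and 439 negative differences, and total counts 439 negative differences. Under the times of the sample titles ZCZ01 had 229 and 102 calls, wild type 198 and 125, and the difference 0 and 0 in edgeR (104 genes at an unadjusted p under 0.05). By the library names, that fit set experiment 2 against experiment 1. DESeq2 gave 544 and 462 in ZCZ01, 300 and 216 in wild type and 524 and 602 differences. A block for each experiment and time cannot give the change over time in 1 strain and was not run for it. The number of reads limits what can be seen of low genes, and whether experiments 2 and 3 are independent was not tested.

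Apart from the sample titles, the direction turned for PPZ1 (1.73 without replicate 1, -0.76 without replicate 2, -0.89 without replicate 3, -0.80 with experiments 2 and 3 summed), PPZ2 (-0.01 with no filter, -0.30 without replicate 1, 0.24 without replicate 2), GLC7 (0.95 without replicate 1, -0.24 without replicate 2, -0.27 without replicate 3, -0.23 summed) and DBP2 (-0.0034 with no replicate block, 0.45 without replicate 1, -0.08 without replicate 2, -0.11 without replicate 3, -0.07 summed), none of which passed the test in ZCZ01. Several list medians turned too, and not all are given here. With total counts, where the median of all genes was 0.211, chaperones turned to 0.045 and septins and morphogenesis kinases to 0.046. Mitotic cyclins and mitosis turned to 0.051 and Snf1 and glucose repression to 0.019. Hexose transporters and sensors went from 0.518 to -0.763 at a mean of at least 50 counts, with 7 genes tested. The cause was not tested. The times of the sample titles follow the experiment numbers of the library names, and the title replicates follow the library times. If the library names hold, the fit on the titles set experiment 2 against experiment 1 and not 2 h against 0.5 h. Its values then measure no change over time. In that fit, 68 log2 changes of named genes turned direction in ZCZ01, 16 in wild type and 11 of the differences. In ZCZ01 these were PPZ2 -0.10, VHS3 -0.14, YPI1 -0.23, GLC7 -0.06, YRO2 -0.16, SSA3 -0.54, SSA1 0.06, SSA2 0.17, HSC82 0.03, TMA10 0.54, MPC3 0.19, TRX1 0.20 and GRE1 -0.91. Others were TAL1 0.49, HXT7 0.57, MAL12 0.85, GAL2 0.12, GAL3 0.18, GAL10 0.46, JEN1 0.47, CAT8 0.26, MDH1 0.39, CIT1 0.38, CYC1 0.32, MRPL20 0.55 and MNP1 0.08. There also were TUF1 0.08, KRR1 -0.19, UTP11 -0.11, BUD20 -0.11, RRS1 -0.65, RPL18B 1.49, RPS14B -0.53, AAH1 -0.51, DBP2 -0.54, SFG1 0.61, CLN2 0.13, RNR3 -0.85 and CDC21 0.19. Then came SWE1 0.67, KCC4 0.15, DSE2 -0.50, CTS1 -0.63, MFA1 -0.25, AGA1 -0.44, FUS1 -0.42, STE2 -0.17, BAR1 -0.10, STE3 -1.58, ARG1 -0.10, MET6 -0.20 and GAP1 -0.22. Further values were AGP1 -0.54, GNP1 0.11, TAT1 0.17, ARO9 0.01, ARO10 0.04, SNZ1 -0.24, IMD3 0.09, FET3 0.07, FTR1 0.26, SIT1 0.83, FIT2 1.13, PHO5 -0.87 and PMA1 -0.07. The rest were PMP1 -0.76, ROQ1 -0.15 and ATP1 0.34. In wild type they were NQM1 0.54, YGP1 0.29, CTT1 0.58, ALD3 0.60, GPG1 0.90, PHM8 0.84, HSP12 0.27, ROQ1 0.61, AAH1 -0.54, DBP2 -1.20, URA1 -0.62, HTB2 -0.49 and HTA2 -0.67. Others in wild type were SSA4 0.40, VHS3 0.34 and KRR1 -0.24. The differences were GRE1 -0.91, GPG1 -0.65, PHM8 -0.67, ROQ1 -0.55, AAH1 0.00089, DBP2 0.71, HTB2 0.03, SSA4 -0.10, VHS3 -0.50, PPZ2 -0.01 and KRR1 0.06.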

Other observations

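The lists below had not been described, and over all genes tested 898 (15.9%) rose and 1035 (18.3%) fell at the adjusted p of edgeR alone. Of phospholipid and fatty acid synthesis genes, 3 of 29 rose and 14 fell in ZCZ01 at 2 h over 0.5 h (median log2 change -0.42), with 0 to 4 higher and 3 to 16 lower with 1 experiment left out. Of meiosis and sporulation genes, 10 of 24 rose and 1 fell (median 1.01), with 1 to 10 higher and 0 lower with 1 experiment left out. Only 3 of them reached a mean of at least 50 counts, with a median of -0.038. Genes of leucine, isoleucine and valine had 5 of 12 lower and 0 higher (0 to 2 higher and 1 to 8 lower with 1 experiment left out), and of cytosolic aminoacyl-tRNA synthetase genes 1 of 20 rose and 6 fell (0 to 5 higher and 2 to 10 lower with 1 experiment left out).

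Of genes of CoA, thiamine, biotin and NAD, 11 of 40 rose and 1 fell (5 to 12 higher and 0 to 7 lower with 1 experiment left out), and of cell wall genes 16 of 62 rose and 14 fell (9 to 20 higher and 5 to 22 lower with 1 experiment left out). Of ergosterol genes, 9 of 33 rose and 4 fell (median 0.29, 2 to 15 higher and 2 to 6 lower with 1 experiment left out), and of the phosphate regulon 6 of 26 rose and 4 fell (4 to 10 higher and 0 to 10 lower with 1 experiment left out). Of proteasome genes, 6 of 43 rose and 2 fell (0 to 16 higher and 0 to 8 lower with 1 experiment left out), against 18 that fell in wild type.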
